A study of Mus musculus with 8 samples.

Results

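Neuropeptide receptor genes were examined in whole brain of mice with a brain-specific knockout of Sirt1 (BSKO), the gene of a deacetylase that uses NAD, against wild-type littermates (WT). The set held 10 genes: the neuropeptide Y receptor genes Npy1r, Npy2r and Npy5r, Trhr for thyrotropin-releasing hormone, the oxytocin receptor gene Oxtr, the somatostatin receptor genes Sstr1 and Sstr2, the galanin receptor gene Galr1, the substance P receptor gene Tacr1 and the mu opioid receptor gene Oprm1. Members were found by gene symbol, as every probe set that the platform annotation pairs with 1 of these symbols alone. All 10 genes had a probe set, 16 in all of 22626 tested, and 12393 genes had a probe set with 1 symbol. The genes were selected on earlier results of the same arrays, in which Npy2r and Trhr were among the largest decreases in BSKO without the array BSKO 2. The differences of the 16 probe sets between the genotypes are therefore given as a description. Neither they nor any p value or call given for them supports anything by itself.

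The arrays came from 4 BSKO and 4 WT males of strain C57/B6, aged 3 months, each RNA sample on a separate Affymetrix Mouse430A_2 array with a single channel. Which part of Sirt1 was deleted, and which line directs the deletion to the brain, the sources used here do not say. The values are log2 intensities after RMA, the standard background correction, normalization and summary of Affymetrix probes. Each probe set was centred on its median over the 8 arrays, so 0 stands for that median and a value of 1 for a 2-fold higher signal. Such values show how arrays differ and give no expression level. The receptors could therefore not be ordered by level, and the labelled tissue could not be checked for absent markers. Where the genotypes do not overlap, the BSKO and the WT value nearest to each other lie equally far from 0 by construction. The SD of all tested values was 0.222 on BSKO 1, 0.831 on BSKO 2, 0.314 on BSKO 3, 0.228 on BSKO 4 and 0.15 to 0.22 on the WT arrays. On BSKO 2 the 5' control probe set of beta-actin lay 2.44 below the 3' one (a difference of -2.44), against -0.10 to 0.49 on the other 7 arrays. Each comparison is therefore given with all 8 arrays and without BSKO 2, and the number of arrays limits the precision. Sirt1 itself had 0.076, -1.46, -0.20 and -0.059 on BSKO 1 to 4, against 0.0041, -0.0041, 0.082 and 0.29 on WT 1 to 4. Its genotypes overlapped (limma adjusted p = 0.549 with 8 arrays and 0.428 without BSKO 2), and since the deleted part is not known here, its signal checks no label.

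Neuropeptides are cut from larger precursor proteins, released from dense-core vesicles and bound by G protein-coupled receptors on the same or other neurons. The Y, somatostatin, galanin and opioid receptors couple mainly to inhibitory G proteins, which lower cAMP and open inwardly rectifying potassium channels. The receptors for thyrotropin-releasing hormone, oxytocin and substance P couple mainly to Gq, which activates phospholipase C. In the brain these systems act on feeding, stress, pain, social behaviour and arousal.

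Each of the 4 BSKO arrays lay below all WT arrays for Npy2r and for Trhr, and the differences of all 3 of their probe sets were larger in size than those of the other 8 genes. Npy2r encodes the Y2 receptor, which sits largely on axon terminals and restrains release of neuropeptide Y and other transmitters. Its probe set 1417489_at had -0.45, -1.59, -1.63 and -1.25 on BSKO 1 to 4, against 0.52, 0.52, 0.45 and 0.58 on WT 1 to 4. The WT arrays lay within 0.125 of each other, whereas the BSKO arrays spanned 1.18, because BSKO 1 stood closer to WT than the other 3 did. The means were -1.23 ± 0.55 in BSKO and 0.52 ± 0.05 in WT (SD, n = 4 each), a log2 difference of -1.75 (SE 0.24), or 3.37-fold lower in BSKO. Without BSKO 2 the difference was -1.63 (SE 0.24), or 3.1-fold. Since whole brain was measured, fewer Npy2r-expressing cells and less Npy2r RNA per cell cannot be told apart, and the same holds for each gene described here.

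Trhr encodes a receptor of thyrotropin-releasing hormone and was measured by 2 probe sets. Probe set 1449571_at had -0.41, -1.38, -1.45 and -1.64 on BSKO 1 to 4, against 0.85, 0.72, 0.41 and 0.44 on WT 1 to 4. BSKO 1 again stood nearest to WT, and WT 1 and WT 2 were the highest arrays. The means were -1.22 ± 0.55 in BSKO and 0.60 ± 0.22 in WT (SD, n = 4 each), a log2 difference of -1.82 (SE 0.26), or 3.54-fold lower in BSKO, and -1.77 (SE 0.28) without BSKO 2. Probe set 1449572_at had -0.084, -0.48, -0.35 and -0.74 on BSKO 1 to 4, against 0.23, 0.27, 0.64 and 0.084 on WT 1 to 4. It showed the same order of the genotypes with a smaller difference, -0.72 (SE 0.17) with 8 arrays and -0.69 (SE 0.18) without BSKO 2.

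**Figure D1:**
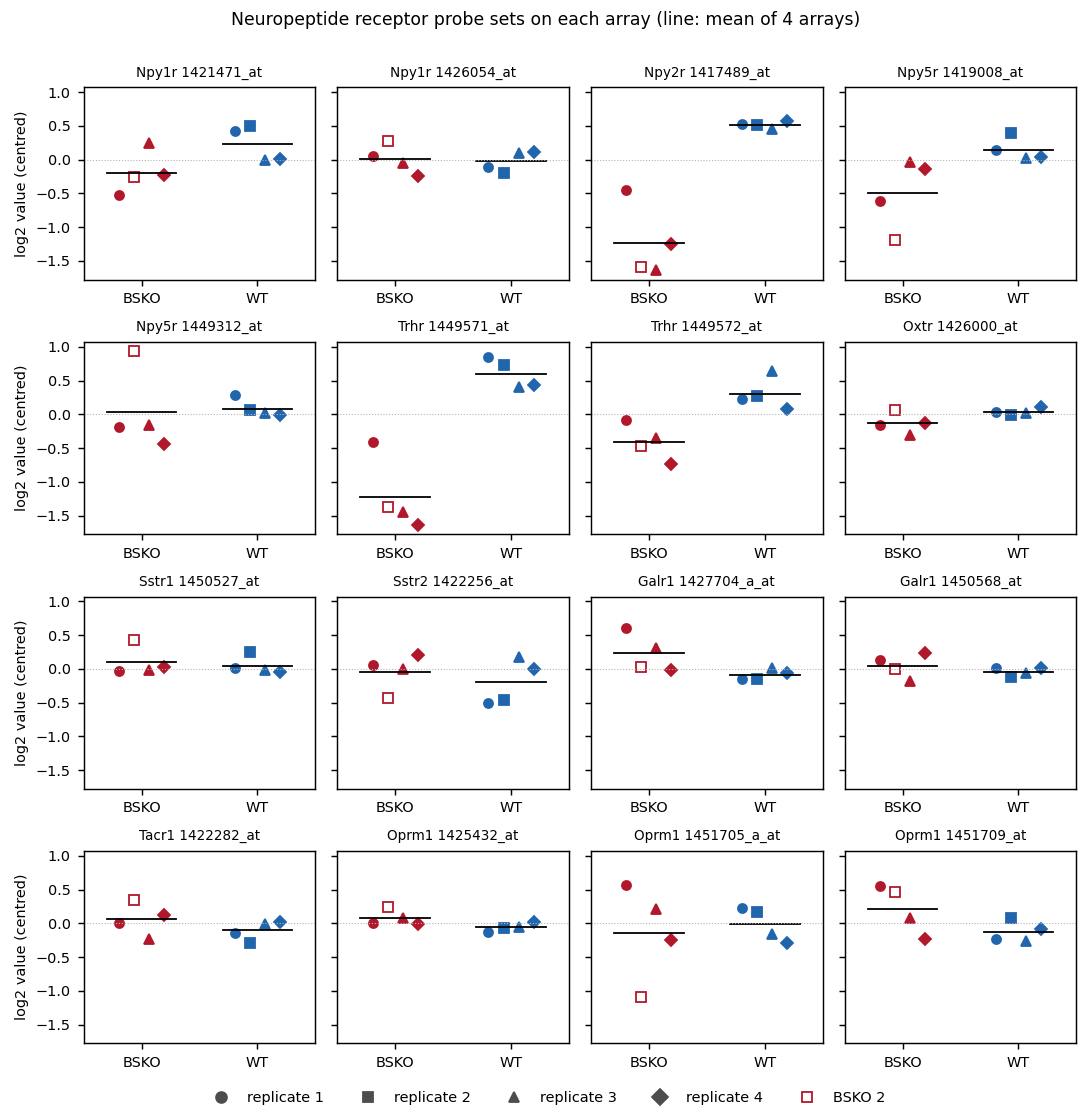
Centred log2 value (y axis) of each of the 16 receptor probe sets on the 4 BSKO arrays (red) and the 4 WT arrays (blue), with the mean of 4 arrays as a line and BSKO 2 as an open square. Npy2r and both Trhr probe sets have every BSKO array below every WT array, with BSKO 1 at -0.45 for Npy2r and -0.41 for Trhr 1449571_at, and most other panels overlap.

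Among all 22626 tested probe sets ordered by their difference, Trhr 1449571_at was the 15th lowest and Npy2r the 18th lowest with 8 arrays. Without BSKO 2 they were the 12th and the 20th lowest. With 8 arrays none of the 16 receptor probe sets was called, that is, had a limma adjusted p under 0.05 over all tested probe sets, where 0.0309% of all probe sets were called. At an unadjusted p under 0.05 there were 4 of the 16, against 10.8% of all probe sets. Without BSKO 2 there were 7 of the 16, against 19.8% of all probe sets. Without BSKO 2 these 2 probe sets, Npy2r and Trhr 1449571_at, were called as lower and none as higher, where 1.14% of all probe sets were called as lower and 0.495% as higher. Neither was called when the replicate number was added as a block, when BSKO 4 was left out as well as BSKO 2, or when any 1 WT array was, and Trhr was also not called when BSKO 3 was. The genotypes did not overlap with 8 arrays for 4 of the 16, all lower in BSKO, against 6.66% of all probe sets on the lower side and 5.67% on the higher side. As the genes were chosen from this contrast, nothing is read from these counts.

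The other Y receptor genes showed smaller differences. Npy1r and Npy5r encode the Y1 and Y5 receptors, which lie mainly on cell bodies and dendrites and take part in the feeding response to neuropeptide Y. They are adjacent protein-coding genes on chromosome 8, while Npy2r lies on chromosome 3. RefSeq promoter windows of assembly GRCm38.p6, 250 bases before to 50 bases after a gene start, were at hand for 7 of the 10 genes. The windows of the 3 Y receptor genes are shown because these genes share ligands and differ in how far they moved. They run 5' to 3' on the strand of the gene, and capitals mark matches to the motifs named after them.
Npy2r, chr3:82548036-82548335, minus strand: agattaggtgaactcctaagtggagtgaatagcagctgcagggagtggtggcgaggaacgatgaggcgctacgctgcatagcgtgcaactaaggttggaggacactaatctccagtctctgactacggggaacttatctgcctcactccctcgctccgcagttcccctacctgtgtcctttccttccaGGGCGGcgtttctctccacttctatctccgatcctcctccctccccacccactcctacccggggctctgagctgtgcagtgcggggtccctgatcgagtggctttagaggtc
Npy1r, chr8:66697172-66697471, plus strand: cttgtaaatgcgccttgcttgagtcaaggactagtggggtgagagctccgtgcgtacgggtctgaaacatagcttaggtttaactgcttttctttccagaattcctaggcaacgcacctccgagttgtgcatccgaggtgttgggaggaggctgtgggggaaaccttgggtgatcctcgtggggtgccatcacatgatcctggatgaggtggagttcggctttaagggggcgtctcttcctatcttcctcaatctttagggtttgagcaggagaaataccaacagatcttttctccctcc
Npy5r, chr8:66688045-66688344, minus strand: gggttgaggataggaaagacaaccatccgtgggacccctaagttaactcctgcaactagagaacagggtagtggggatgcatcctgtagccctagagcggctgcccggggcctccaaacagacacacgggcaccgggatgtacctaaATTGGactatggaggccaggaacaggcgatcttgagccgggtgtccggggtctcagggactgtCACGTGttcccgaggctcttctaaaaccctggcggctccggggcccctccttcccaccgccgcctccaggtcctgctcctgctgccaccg
The motifs searched on either strand were the cAMP response element core TGACG, the E-box CACGTG, the FOXO core TGTTTAC, the GC box GGGCGG, the TATA core TATAAA and the CCAAT box. No 2 of these motifs overlapped in the windows shown. The Npy2r window held 1 match, a GC box 62 bases before the start, a motif found in 35.7% of all 32851 windows. The Npy1r window held none. The Npy5r window held an E-box 40 bases and a CCAAT box 103 bases before the start, motifs found in 7.15% and 37.4% of all windows. The GC content was 57.7% for Npy2r, 51.7% for Npy1r and 61.7% for Npy5r, with a median of 52.7% over all windows. The E-box also occurred in the Oxtr window, and the FOXO and TATA cores in none of the 9 windows of the 7 genes. A match describes letters and shows no binding.

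Npy1r probe set 1421471_at had -0.53, -0.26, 0.25 and -0.22 on BSKO 1 to 4, against 0.42, 0.50, -0.010 and 0.010 on WT 1 to 4. BSKO 3 lay above WT 3 and WT 4, and WT 1 and WT 2 stood above the other WT arrays. The log2 difference was -0.42 (SE 0.19) with 8 arrays. Between the arrays numbered 1 and 2 it was -0.86, and between those numbered 3 and 4 it was 0.015. The second Npy1r probe set, 1426054_at, differed by 0.032 (SE 0.14) with 8 arrays and by -0.059 without BSKO 2, with overlapping genotypes. For Npy5r, 1419008_at had -0.61, -1.19, -0.029 and -0.14 on BSKO 1 to 4, against 0.14, 0.39, 0.029 and 0.040 on WT 1 to 4. All BSKO arrays were below all WT arrays, but BSKO 3 and WT 3 were only just apart. The difference was -0.64 (SE 0.25) with 8 arrays and -0.41 (SE 0.15) without BSKO 2. Probe set 1449312_at had -0.18, 0.94, -0.16 and -0.43 on BSKO 1 to 4, against 0.28, 0.057, 0.014 and -0.014 on WT 1 to 4. BSKO 2 was thus the lowest array on one Npy5r probe set and the highest on the other, a gap of 2.14 between them, against 0.015 to 0.42 on the other 7 arrays. Without BSKO 2 the second Npy5r probe set differed by -0.34 (SE 0.10), close to the first.

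The genes of the Gq-coupled receptors for oxytocin and substance P differed little between the genotypes, in contrast to Trhr. Oxtr, whose product acts in social and maternal behaviour, had -0.15, 0.061, -0.30 and -0.12 on BSKO 1 to 4, against 0.029, -0.014, 0.014 and 0.10 on WT 1 to 4. BSKO 2 lay among the WT arrays and the other 3 BSKO arrays below them. The difference was -0.16 (SE 0.10) with 8 arrays and -0.23 (SE 0.071) without BSKO 2. Tacr1, which encodes the neurokinin-1 receptor for substance P, had 0.0023, 0.34, -0.22 and 0.13 on BSKO 1 to 4, against -0.15, -0.29, -0.0023 and 0.026 on WT 1 to 4. The genotypes overlapped, with a difference of 0.16 (SE 0.14) with 8 arrays and 0.072 (SE 0.11) without BSKO 2.

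Of the inhibitory receptors outside the Y family, Galr1 and Oprm1 had most of their values higher in BSKO, with overlapping genotypes. Galr1, a receptor for galanin, had 0.60, 0.035, 0.30 and -0.011 on BSKO 1 to 4 on probe set 1427704_a_at, against -0.14, -0.16, 0.011 and -0.057 on WT 1 to 4. Only BSKO 4 lay inside the range of the WT arrays. The difference was 0.32 (SE 0.15) with 8 arrays and 0.39 (SE 0.14) without BSKO 2, and it was 0.085 (SE 0.11) on the other Galr1 probe set. Oprm1, whose product is the target of morphine and of the endogenous enkephalins and endorphin, was measured by 3 probe sets. Probe set 1451709_at had 0.56, 0.46, 0.079 and -0.23 on BSKO 1 to 4, against -0.23, 0.083, -0.26 and -0.079 on WT 1 to 4. BSKO 1 and BSKO 2 were above all WT arrays and BSKO 4 was among them, with a difference of 0.34 (SE 0.18). Probe set 1451705_a_at differed by -0.13 with 8 arrays and by 0.19 (SE 0.20) without BSKO 2, where it had -1.09, and 1425432_at by 0.14 (SE 0.096) and 0.083 (SE 0.065).

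The somatostatin receptor genes did not separate the genotypes. Sstr1 had -0.032, 0.42, -0.017 and 0.032 on BSKO 1 to 4, against 0.017, 0.25, -0.024 and -0.052 on WT 1 to 4, so that replicate 2 was the highest array in both genotypes. Sstr2 had 0.051, -0.44, -0.0014 and 0.21 on BSKO 1 to 4, against -0.51, -0.45, 0.18 and 0.0014 on WT 1 to 4. The mean of WT 1 and WT 2 minus that of WT 3 and WT 4 was -0.57, a larger size than the genotype difference of 0.15 (SE 0.20) or, without BSKO 2, 0.28 (SE 0.17). Over the 13 probe sets of the 8 genes other than Npy2r and Trhr, the differences ran from -0.64 to 0.34 with 8 arrays (median 0.054, 5 lower and 8 higher in BSKO). Without BSKO 2 they ran from -0.41 to 0.39 (median 0.072, 6 lower and 7 higher). The medians over all 22626 probe sets were 0.022 and 0.0089. For 7 of the 16 receptor probe sets BSKO 2 was the array farthest from the median of the 8, against 65.5% of all probe sets. The sign of the difference changed in 3 of the 16 when BSKO 2 was left out.

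**Figure D2:**
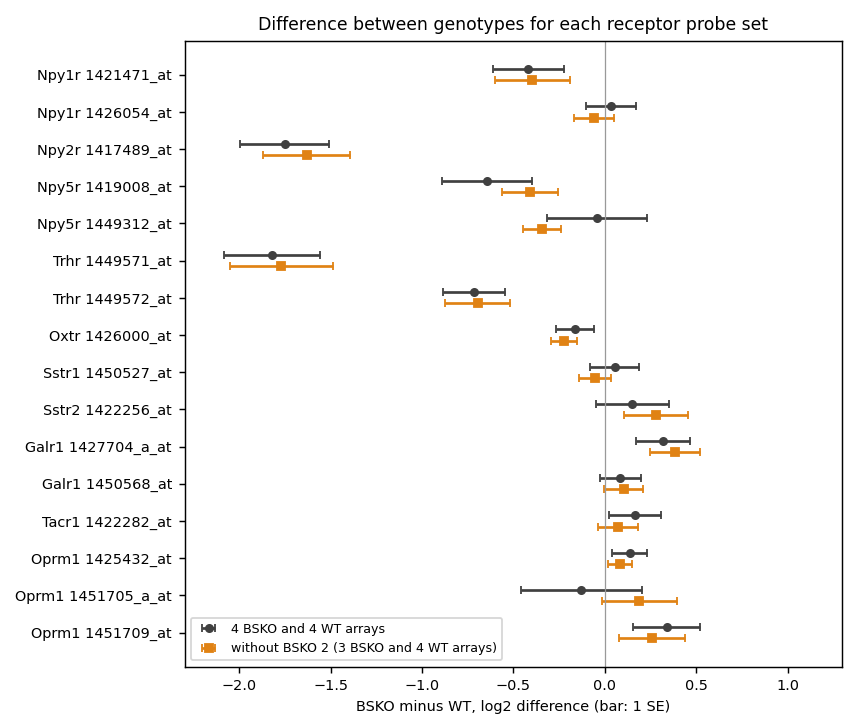
Log2 difference BSKO minus WT (x axis) of each receptor probe set with its SE as a bar, with 4 BSKO and 4 WT arrays (circles) and without BSKO 2 (squares). Npy2r and Trhr 1449571_at lie between -1.82 and -1.63 in both comparisons, and the 13 probe sets of the other 8 genes between -0.64 and 0.39.

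Of 16 ligand genes, 15 had a probe set, Galp was not analysed here, and none of the 16 probe sets was called with 8 arrays or without BSKO 2 (limma). At an unadjusted p under 0.05 there were 8 of the 16 with 8 arrays, against 10.8% of all probe sets, and 5 of the 16 without BSKO 2, against 19.8%. Their median difference was 0.41 with 8 arrays and 0.29 without BSKO 2. Trh, which encodes the ligand of Trhr, had 0.88, 0.46, -0.43 and -0.88 on BSKO 1 to 4, against -0.087, -0.24, 0.087 and 0.17 on WT 1 to 4. BSKO 1 and BSKO 2 were above all WT arrays and BSKO 3 and BSKO 4 below them, although Trhr was low on BSKO 2, 3 and 4 alike. The Trh difference was 0.024 (SE 0.36, limma adjusted p = 0.978). Npy, which encodes the neuropeptide Y precursor, had -0.12, 0.014, -0.014 and 0.64 on BSKO 1 to 4, against -0.48, -0.53, 0.29 and 0.25 on WT 1 to 4. WT 1 and WT 2 were the lowest arrays, unlike for Npy2r, where the WT arrays were nearly equal. The Npy difference was 0.25 (SE 0.25, limma adjusted p = 0.675). The related Y receptor ligand genes Pyy and Ppy differed by 0.24 (SE 0.18) and 0.39 (SE 0.13), with limma adjusted p values of 0.596 and 0.341.

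The genotype difference of precursors made in hypothalamic neurons depended on which replicates were compared. Oxt, which encodes oxytocin, had 3.42, 2.99, -0.054 and -0.20 on BSKO 1 to 4, against -2.22, -1.53, 0.19 and 0.054 on WT 1 to 4. Replicates 1 and 2 gave a difference of 5.08 and replicates 3 and 4 one of -0.25, and it was 2.42 (SE 0.96, limma adjusted p = 0.430) over all arrays. Gal, the galanin precursor, had 2.75, 2.50, 0.22 and -0.52 on BSKO 1 to 4, against -0.58, -0.40, 0.12 and -0.12 on WT 1 to 4 (difference 1.48, SE 0.70, limma adjusted p = 0.485). Its 2 high arrays, BSKO 1 and BSKO 2, had 0.60 and 0.035 for Galr1 1427704_a_at. Avp, the vasopressin precursor, differed by 0.42 (SE 0.55, limma adjusted p = 0.732), and the Pomc probe sets by 0.81 (SE 0.35) and 1.10 (SE 0.47), each with BSKO 2 the highest array.

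Pdyn, Penk, Tac1 and Tac2 had their lowest values on WT 1 and WT 2. Pdyn, the dynorphin precursor, had 0.49, -0.14, 1.12 and 1.03 on BSKO 1 to 4, against -2.08, -1.86, 0.084 and -0.084 on WT 1 to 4. Penk, the enkephalin precursor, had -0.049, -0.14, 0.59 and 0.71 on BSKO 1 to 4, against -2.02, -2.06, 0.065 and 0.049 on WT 1 to 4. Their differences were 1.61 (SE 0.54) and 1.27 (SE 0.55). The mean of WT 1 and WT 2 minus that of WT 3 and WT 4 was -1.97 for Pdyn and -2.10 for Penk. Tac1, the substance P precursor, had 0.019, 0.16, 0.20 and 0.28 on BSKO 1 to 4, against -0.88, -0.82, -0.098 and -0.019 on WT 1 to 4 (difference 0.62, SE 0.21, limma adjusted p = 0.370). Tac2 and Tac4, the other tachykinin precursors, differed by 0.16 (SE 0.37) and 0.21 (SE 0.19). Sst, the somatostatin precursor, and Cort, which encodes the related peptide cortistatin, differed by -0.23 (SE 0.28) and -0.67 (SE 0.21, limma adjusted p = 0.342).

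**Figure D3:**
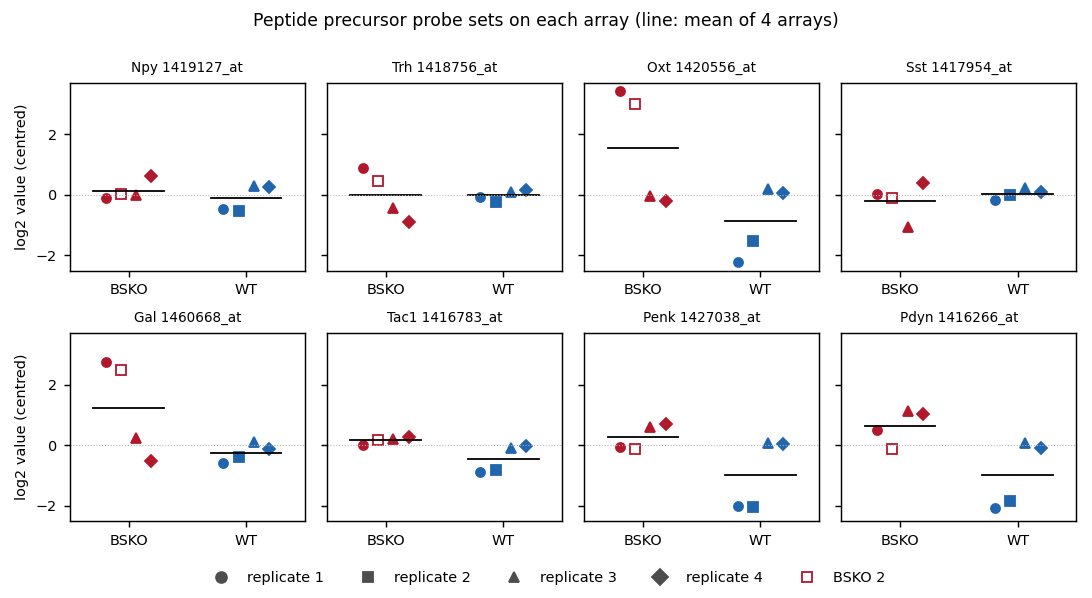
Centred log2 value (y axis) of 8 peptide precursor probe sets on the 4 BSKO arrays (red) and the 4 WT arrays (blue), with the mean of 4 arrays as a line and BSKO 2 as an open square. Oxt and Gal are high on BSKO 1 and BSKO 2 (3.42 and 2.99 for Oxt), and Penk and Pdyn are low on WT 1 and WT 2 (-2.02 and -2.06 for Penk).

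Of 55 further neuropeptide receptor genes, 40 had a probe set and 15 were not analysed here. Among their 53 probe sets 31 were higher and 22 lower in BSKO with 8 arrays, with a median of 0.10. None was called with 8 arrays (limma), and 7 had an unadjusted p under 0.05, as 10.8% of all probe sets did. Without BSKO 2 the median was 0.067, and 1 of the 53 was called, Calcrl 1425814_a_at, on the lower side, where 1.14% of all probe sets were. The genotypes did not overlap with 8 arrays for 1 of the 53 on the lower side and 5 on the higher side, against 6.66% and 5.67% of all probe sets. Calcrl, the receptor subunit for CGRP and adrenomedullin that is known from blood vessels, had -0.42, 0.15, -0.58 and -0.39 on BSKO 1 to 4, against 0.00032, 0.19, -0.00032 and 0.088 on WT 1 to 4. BSKO 2 lay among the WT arrays. This probe set was lower by 0.53 (SE 0.081) in BSKO without BSKO 2 (limma adjusted p = 0.0292, and 0.00849 to 0.156 over the alternatives). The other Calcrl probe set differed by 0.082, on the higher side, in that comparison. The call was lost with trend and robust settings, with the replicate block, in the mean of both probe sets, and without BSKO 3, BSKO 4 or any 1 WT array as well.

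The second thyrotropin-releasing hormone receptor gene, Trhr2, lay on the other side from Trhr. It had 0.088, 0.58, 0.24 and 0.27 on BSKO 1 to 4, against -0.19, -0.37, -0.088 and -0.25 on WT 1 to 4. All BSKO arrays were above all WT arrays. The difference was 0.52 (SE 0.13, limma adjusted p = 0.233) with 8 arrays and 0.43 (SE 0.087, limma adjusted p = 0.0604) without BSKO 2, and it missed the threshold in both. Oprd1, the delta opioid receptor gene, had 0.36, 0.53, 0.25 and 0.0019 on BSKO 1 to 4, against -0.0019, -0.33, -0.29 and -0.27 on WT 1 to 4. BSKO 4 and WT 1 were only just apart, and the difference of 0.51 (SE 0.14) also missed the threshold (limma adjusted p = 0.273). On the lower side were Tacr3 1437029_at, a neurokinin B receptor gene, with -1.02 (SE 0.38, limma adjusted p = 0.409), and Nmbr, the neuromedin B receptor gene, with -0.63 (SE 0.19, limma adjusted p = 0.318). Tacr3 was -0.066, -1.85, -0.71 and -0.088 on BSKO 1 to 4, against 0.60, 0.57, 0.066 and 0.12 on WT 1 to 4, so BSKO 2 carried much of its difference, which was -0.63 without that array. The other Tacr3 probe set, with overlapping genotypes, differed by -0.11 (SE 0.13).

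Genes that act after the receptors or on the peptides were mostly not called. Of 12 listed peptidase genes, 10 had a probe set, and none of their 18 probe sets was called with 8 arrays or without BSKO 2 (limma). At an unadjusted p under 0.05 there were 2 and 3, against 10.8% and 19.8% of all probe sets. The smallest p values without BSKO 2 were those of Anpep (-0.60, SE 0.17), Ece1 (0.35, SE 0.10), Thop1 (0.26, SE 0.091) and Mme (0.46, SE 0.24). Their limma adjusted p values were 0.115 to 0.330. With 8 arrays these differences were -0.24, 0.44, 0.43 and 0.28 in the same order. The other probe sets of Ece1, Thop1 and Mme differed by 0.23, 0.0805 and 0.42 without BSKO 2. Of 32 genes of G proteins, effectors, receptor kinases and arrestins, 28 had a probe set. None of their 56 probe sets was called with 8 arrays (limma), and 4 had an unadjusted p under 0.05, against 10.8% of all probe sets. Without BSKO 2, 1 of the 56 was called, on the lower side, where 1.14% of all probe sets were. That was Gng2 1418452_at, a G protein gamma subunit gene, with -0.20, -0.37, -0.22 and -0.40 on BSKO 1 to 4, against 0.20, 0.32, 0.48 and 0.56 on WT 1 to 4. Every BSKO array was below every WT array, BSKO 2 included. This probe set was lower by 0.66 (SE 0.10) in BSKO without BSKO 2 (limma adjusted p = 0.0302, and 0.0064 to 0.139 over the alternatives). With 8 arrays the difference was -0.68 (SE 0.11, limma adjusted p = 0.0916), and the other Gng2 probe set differed by -0.19. The call without BSKO 2 was lost after quantile normalization, with trend and robust settings, with the replicate block, and without BSKO 3, BSKO 4 or any 1 WT array as well. Kcnj3, a subunit of the inwardly rectifying potassium channel opened by inhibitory receptors, differed by -0.45 (SE 0.089) without BSKO 2 and just missed the threshold (limma adjusted p = 0.0515). With 8 arrays the Kcnj3 genotypes overlapped, with a difference of -0.28 (SE 0.18, limma adjusted p = 0.563) and BSKO 2 the highest array. The next genes without BSKO 2 were Gnb2 (0.44, SE 0.13), Arrb2 (-0.19, SE 0.065) and Adcy8 (-0.71, SE 0.25). Their limma adjusted p values were 0.129 to 0.180. With 8 arrays Gnb2 differed by 0.40, Arrb2 by 0.0067 and Adcy8 by -0.53.

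**Figure D4:**
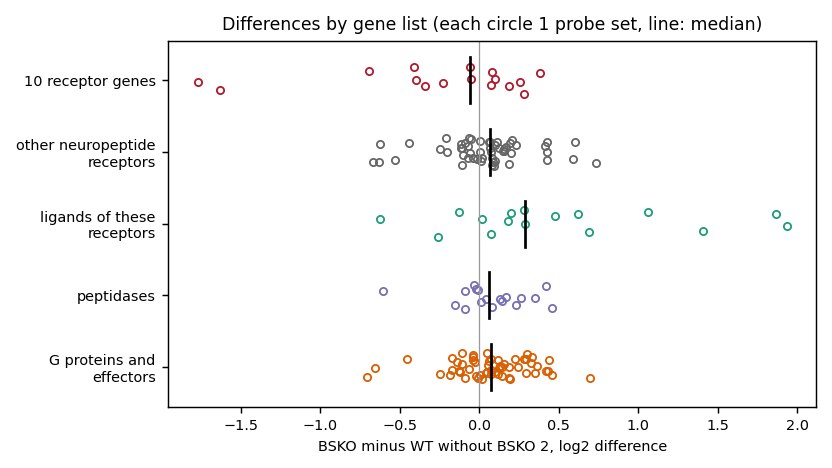
Log2 difference BSKO minus WT without BSKO 2 (x axis) of each probe set (circles) in 5 gene lists, with the list median as a line. Npy2r (-1.63) and Trhr 1449571_at (-1.77) lie apart from the other receptor probe sets, and Trhr 1449572_at is at -0.69. The 53 probe sets of the 40 other receptor genes run from -0.67 to 0.73.

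Npy2r and Trhr were closest to each other among all genes with 1 symbol. Likeness was measured as the root mean square difference of the centred log2 values over the 7 arrays without BSKO 2. It was 0.226 between Npy2r and Trhr 1449571_at, and each was the 1st gene in the order of the other, also with 8 arrays (0.225). After Trhr, the genes closest to Npy2r were Nr2f2, a nuclear receptor gene (0.311), Ptpn20 (0.357), Pcdh20, a protocadherin gene (0.369), and F2r, the thrombin receptor gene (0.376). After Npy2r, those closest to Trhr were Pcdh20 (0.359), Cldn1, a tight junction gene (0.375), Grp, which encodes gastrin-releasing peptide (0.381), and Ptpn20 (0.426). With 8 arrays only Trhr among the 5 genes remained for Npy2r, and Npy2r, Cldn1 and Ptpn20 for Trhr. The measure takes in the genotype difference by which Npy2r and Trhr were chosen and describes these arrays alone.

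Some marker lists of brain regions and cell types also moved across the arrays, and their part in the receptor differences was not tested. The lists described below are not all that were examined. In the others, the BSKO minus WT difference of the list medians ran from -0.33 (choroid plexus) to 0.31 (olfactory bulb). It was -0.0082 for microglia, -0.021 for cortical excitatory neurons and -0.076 for oligodendrocytes. The median of the 6 measured striatal projection neuron markers was 0.097, -0.000089, 1.13 and 1.12 on BSKO 1 to 4, against -1.98, -1.82, 0.036 and -0.095 on WT 1 to 4. The median of the 6 dentate gyrus markers was -0.064, 0.12, -0.41 and -0.39 on BSKO 1 to 4, against 0.69, 0.75, 0.014 and -0.0037 on WT 1 to 4. WT 1 and WT 2 thus stood apart in both lists. For Npy2r, the mean of WT 1 and WT 2 minus that of WT 3 and WT 4 was 0.0057. It was 0.36 for Trhr 1449571_at and -0.12 for Trhr 1449572_at. The 9 meningeal and fibroblast markers had medians of -0.49 to -0.23 on the BSKO arrays. On WT 1 to 4 the medians were 0.75, 0.78, 0.16 and 0.19, with no overlap but with WT 1 and WT 2 again the highest. All 9 were lower in BSKO in the mean of their probe sets with 8 arrays. Of their 19 probe sets, 18 were lower with 8 arrays, against 46.5% of all probe sets. For 11 of the 19 the genotypes did not overlap, on the lower side, against 6.66% of all. Without BSKO 2, 3 of the 19 were called as lower (limma), against 1.14% of all. The medians of the 8 astrocyte markers were only just apart, at -0.32 to 0.033 on the BSKO arrays and 0.036 to 0.16 on the WT arrays. Of their 20 probe sets, 17 were lower in BSKO with 8 arrays and 15 without BSKO 2, against 46.5% and 47.8% of all probe sets. With 8 arrays the genotypes overlapped for 16 of the 20. The other 4 were on the lower side, against 6.66% of all probe sets. The 7 thalamic markers had medians of 0.47, -0.051, -0.99 and -0.37 on BSKO 1 to 4, against -0.056 to 0.22 on the WT arrays. BSKO 1 was the highest BSKO array in that list and lay above all WT arrays. The 7 monoaminergic markers had medians of -0.35 to 0.082 on the BSKO arrays, against 1.238, 1.115, -0.0035 and -0.11 on WT 1 to 4. Only WT 1 and WT 2 thus stood above the BSKO arrays in that list. The 8 hypothalamic markers, which include Oxt and Avp, had medians of 0.30, 1.45, -0.10 and -0.11 on BSKO 1 to 4. On the WT arrays the medians were -0.29 to 0.033, so BSKO 3 and BSKO 4 lay in the WT range. Within replicates 1 and 2 Npy2r differed by -1.55 and within replicates 3 and 4 by -1.96. Trhr 1449571_at differed by -1.68 and -1.97, and Trhr 1449572_at by -0.53 and -0.91. The values for replicates 1 and 2 rest in part on BSKO 2. BSKO 1 alone minus the WT mean was -0.97 for Npy2r, -1.01 for Trhr 1449571_at and -0.39 for Trhr 1449572_at.

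**Figure D5:**
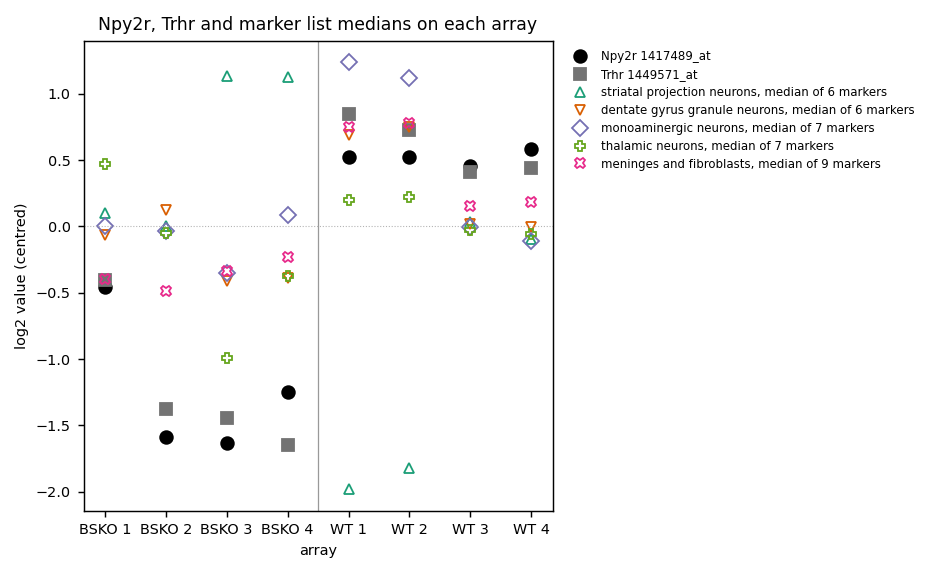
Centred log2 value (y axis) of Npy2r and Trhr (filled symbols) and the median of 5 marker lists (open symbols) on each array (x axis). Npy2r is within 0.45 to 0.58 on the 4 WT arrays, where the striatal median runs from -1.98 to 0.036, and BSKO 1 is the array nearest to WT for both receptors.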

How the data were processed

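Total RNA of whole brain from 4 BSKO and 4 WT mice was measured on Affymetrix arrays (Mouse430A_2, per the labels). The authors deposited log2 values made with RMA, per the submitters' processing notes, whose version is not given in the sources used here. In the values themselves, 22689 of 22690 probe sets have a median over the 8 arrays within 1e-05 of 0. This centring is recorded in no label. Centred values carry no brightness, so no filter on dim probe sets was applied.

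The 64 control probe sets were left out and 22626 tested. Symbols came from the platform annotation, and 20351 of 20380 probe sets with 1 symbol matched RefSeq (GRCm38.p6) by gene number. Of the others, 691 had several symbols and 1555 none. Genotypes were compared across all tested probe sets with limma (version 3.58.1, R version 4.3.3, lmFit followed by eBayes, two-sided, no covariate), with Benjamini-Hochberg adjustment and a threshold of 0.05. The fit was run with 8 arrays and without BSKO 2, and its script was tested on simulated data. Promoter windows are RefSeq's.

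The members, the gene lists and the tests were chosen with earlier results of these data known. Named are all members and ligand genes, then for each other gene list the called genes and up to 4 with the smallest p without BSKO 2, and the 5 genes closest to Npy2r and Trhr. Marker lists are summarised by medians. The replicates are biological replicates, per the labels. Same-numbered arrays were checked for pairing by the correlation of their deviations from the genotype means. It was 0.0858, 0.0562, 0.14 and 0.129 for replicates 1 to 4, and they were not paired in the main fit. All correlations between BSKO and WT arrays within replicates 1 and 2 or within replicates 3 and 4 were positive, 0.0307 to 0.165. All between replicates 1 or 2 and replicates 3 or 4 were negative, -0.147 to -0.0374. Both genotypes thus shared a split of replicates 1 and 2 from 3 and 4, for which the main fit has no covariate.

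Alternatives tried were a block for the replicate number, array weights, trend and robust settings in eBayes, quantile normalization, a median of 0 for each array, no probe sets of suffix _s_at, _x_at or _a_at, 1 mean value per gene, each array left out in turn, and a threshold of 0.10. Figures were drawn with matplotlib 3.10.9.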

Additional observations from a re-analysis of the deposited data

Results flagged for a closer look

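Of the named probe sets, 3 had an array that stood apart from the other 3 of its genotype by more than a Dixon test at 95% allows. Such a test flags about 1 in 20 groups by chance, and 32 groups of receptor probe sets and 60 groups of other named probe sets were examined. Sstr1 1450527_at had 0.42 on BSKO 2, against -0.032 to 0.032 on the other 3 BSKO arrays. Kcnj3 1421468_at had 0.34 on BSKO 2, against -0.44 to -0.32 on the other 3 BSKO arrays. Pyy 1424865_at had -0.13 on WT 1, against -0.0078 to 0.0047 on the other 3 WT arrays.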

How the results depend on the processing

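With 8 arrays 7 of all probe sets were called by limma. The count was 678 after quantile normalization, 108 with trend and robust settings, 2617 with array weights (0.0456 for BSKO 2), 66 at a threshold of 0.10 and 0 with the replicate block (2121 at an unadjusted p under 0.05). Leaving out 1 array gave 0 (WT 4, with 1576 at an unadjusted p under 0.05) to 369 (BSKO 2), with 2 without BSKO 3 or WT 1 and 1 without WT 2 or WT 3. Without BSKO 2, 369 were called, against 3005 with array weights, 1131 at a threshold of 0.10 and 0 with the replicate block (3672 at an unadjusted p under 0.05). Leaving out a further array gave 19 (WT 2) to 1069 (BSKO 1), with 128 without BSKO 3, 68 without BSKO 4, 24 without WT 1, 91 without WT 3 and 27 without WT 4. Replicates 1 and 2 did not correlate over 0.1 by number, and not every array correlated best with its own number. The block leaves fewer residual degrees of freedom, and whether this accounts for the count of 0 was not tested.

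Npy2r stayed between -2.01 and -1.62 over 15 alternatives with 8 arrays and between -1.96 and -1.37 over 14 without BSKO 2. Trhr 1449571_at stayed between -2.09 and -1.27, and between -2.15 and -1.23, where the smallest sizes are the mean with its second probe set. With 8 arrays each was called in 4 of 15 alternatives (quantile normalization, array weights, without BSKO 1, without BSKO 2). Without BSKO 2 the calls were kept in 8 of 14 for Npy2r and 7 of 14 for Trhr. Of 238 values of the receptor probe sets over these alternatives with 8 arrays, 223 kept their side of the threshold and, where not called, moved by less than 1 SD, 10 passed it and 5 moved further. Without BSKO 2 these numbers were 203, 4 and 2 of 222, and 13 lost the call. No called receptor changed sign. Npy2r and Trhr were chosen from this contrast, so these counts and ranges describe the fits and support nothing by themselves.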
